A study of Homo sapiens with 16 samples.

Results

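The list holds 32 genes of the constitutive proteasome. First are the 7 PSMA genes of the alpha ring and the 7 PSMB genes of the beta ring. Next come the 6 PSMC genes of the base ATPases and 4 other base genes (PSMD1, PSMD2, PSMD4 and ADRM1). Last are 8 lid genes of the PSMD family. Members were taken from this list by gene symbol, but the list was chosen with earlier results of these data known. Each member was read from its brightest probe set, judged by the mean of all 16 arrays. Of the 32 genes, 28 were measured, out of 19775 genes in all: 6 of 7 alpha ring genes, 7 of 7 beta ring genes, 5 of 6 base ATPases, 4 of 4 other base genes and 6 of 8 lid genes. PSMA6 was listed only on probe sets shared with another gene, and PSMC5, PSMD7 and PSMD13 had no probe set paired with that gene alone; these 4 are not analysed here.

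The series profiled MIA PaCa-2, an established human pancreatic cancer cell line, with Affymetrix arrays. The 4 groups, of 4 arrays each, were polysome RNA and cytosolic RNA of cells given PP242 at 2.5 µM for 12 hours, and polysome RNA and cytosolic RNA of cells given the DMSO vehicle for the same time. PP242 is an ATP-competitive inhibitor of the kinase mTOR. Polysome RNA was pooled from the fractions of a 10% to 50% sucrose gradient in which an mRNA carried more than 3 ribosomes, and cytosolic RNA was the material loaded on it, so the design asks which mRNAs differ in amount and which differ in ribosome loading.

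Each value is a log2 intensity, and array medians were 4.57 to 4.63 in polysome RNA and 5.0 to 5.05 in cytosolic RNA, so values are compared within a pool and a loss shared by all polysomal mRNAs cannot be seen. Arrays within a group correlated at 0.979 to 0.998 across genes. The keratins KRT8 and KRT18 and vimentin (VIM) averaged 12.43, 13.78 and 14.18, whereas the epithelial adhesion genes EPCAM (2.79) and CDH1 (3.44) were near the bottom of the scale. COL1A2, a fibroblast collagen gene, averaged 11.54, while DCN and LUM, also from the fibroblast list of 5 genes, averaged 5.18 and 3.27. The fibroblast list mean was 6.56 to 6.83 in polysome RNA of PP242-treated cells and 6.93 to 7.20 in polysome RNA of vehicle-treated cells, and 6.32 to 6.56 in cytosolic RNA of PP242-treated cells and 6.67 to 6.95 in cytosolic RNA of vehicle-treated cells. COL1A2 fell by 0.85 on polysomes and by 0.66 in the cytosol, and COL3A1 by 1.02 and 0.83. Keratins moved the other way: KRT19, which averaged 10.72, rose by 1.13 on polysomes and by 1.57 in the cytosol, KRT18 rose by 0.39 and 0.77, and KRT8 rose by 0.86 in the cytosol. The mean of the epithelial list of 6 genes was 9.96 to 9.98 in polysome RNA of PP242-treated cells and 9.54 to 9.72 in polysome RNA of vehicle-treated cells, and 9.41 to 10.03 in cytosolic RNA of PP242-treated cells and 8.89 to 9.07 in cytosolic RNA of vehicle-treated cells. The part of either list in the results was not tested. Leukocyte, endothelial and normal pancreas lists had means of 3.43 to 4.93 on every array. Fewer copies per cell and fewer cells giving them cannot be told apart in bulk RNA.

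The proteasome degrades proteins that carry ubiquitin chains. Its barrel-shaped core has outer alpha rings, which gate the entry, and inner beta rings, which hold the protease sites. The regulatory particle has a base, whose ATPases unfold the substrate, and a lid, which removes the ubiquitin. mTOR signalling has been linked both to the synthesis of proteasome genes through the transcription factor NFE2L1, also called NRF1, and to the rate of protein degradation, and cancer cells depend on a high proteasome capacity.

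In polysome RNA, proteasome subunit mRNAs were lower with PP242. Of the 28 members 13 fell, 0 rose and 15 did not pass the test (limma over all genes, Benjamini-Hochberg adjusted p under 0.05). Over all 19775 genes 6.55% fell and 6.8% rose. The median change of the members was -0.40 on the log2 scale against 0.00 for all genes, and 27 of the 28 estimates lay below 0. In 19 members the 4 PP242 arrays all lay below the 4 vehicle arrays, which was so for 9.86% of all genes, and in 0 members they all lay above, as in 9.47% of all genes. Among genes with a mean of at least 6 the test called 15 of 28 members lower and 1421 of 9656 genes.

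Same-numbered arrays deviated together, so the replicate number was also fitted as a block. With that block 19 members fell, the 13 and 6 more (PSMA5, PSMB3, PSMD1, PSMD3, PSMD8 and PSMD14), where 9.7% of all genes fell. Without replicate 1, 2 or 4 only 7, 6 and 8 members passed without the block. Replicates 1 and 2 alone gave 10 members lower with a median of -0.35, and replicates 3 and 4 alone gave 3 with a median of -0.43. Here and below, fits that leave out arrays, rescale them or average probe sets are given without the share of all genes called. Fewer arrays weaken the test for every gene, so a lost call is not read as particular to the members.

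**Figure D1:**
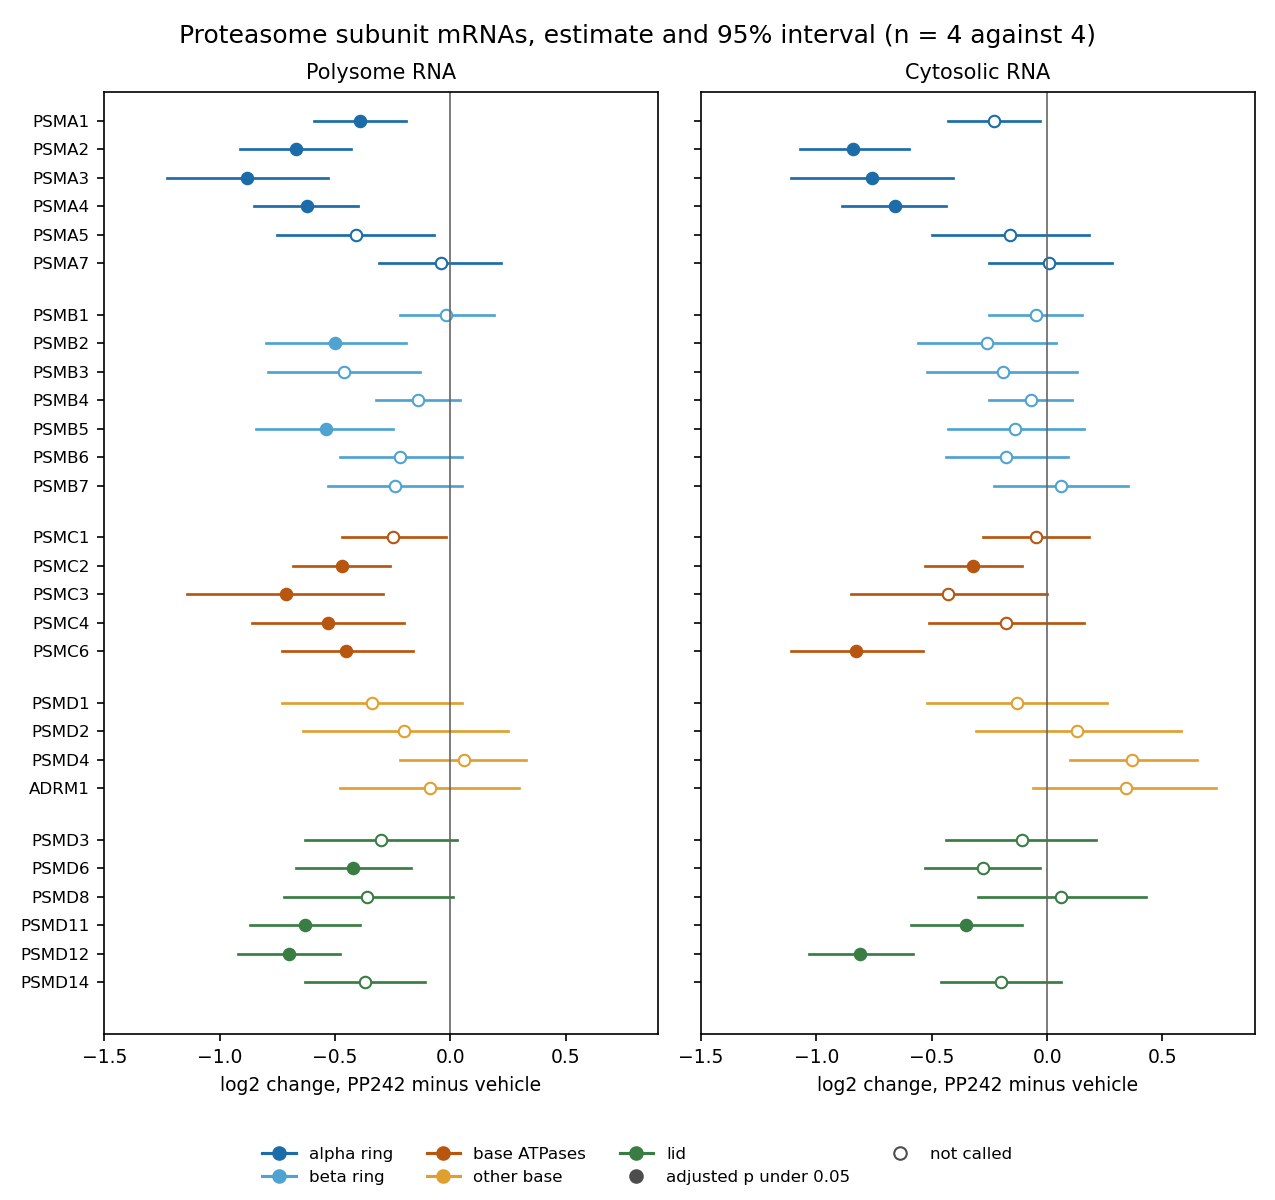
Change of each measured proteasome subunit mRNA with PP242, in polysome RNA (left) and cytosolic RNA (right), as the log2 difference PP242 minus vehicle with its 95% interval; filled points passed the test at an adjusted p under 0.05. All polysome estimates except that of PSMD4 (0.06) lie left of 0, while in cytosolic RNA 6 of 28 lie right of 0.

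The alpha ring had 4 of 6 members lower on polysomes, with a median of -0.52 (5 of 6 with the replicate block, which added PSMA5). PSMA3, an outer-ring subunit, had log2 values of 10.65, 10.94, 10.26 and 10.69 in polysome RNA of PP242-treated cells, against 11.52, 11.87, 11.37 and 11.30 in polysome RNA of vehicle-treated cells. PSMA2, another subunit of the ring, had 11.27, 11.49, 11.08 and 11.31 with PP242, against 11.88, 12.05, 11.93 and 11.98 with vehicle. PSMA4, whose yeast counterpart carries the tail that closes the gate, had 11.35, 11.46, 11.14 and 11.23 with PP242, against 11.91, 12.01, 11.95 and 11.81 with vehicle. In all of these the third PP242 array was the lowest, and the groups did not overlap. The changes were -0.88 ± 0.17 for PSMA3 (adjusted p = 0.00114), -0.67 ± 0.11 for PSMA2 (0.000416) and -0.62 ± 0.11 for PSMA4 (0.000477), where ± is the standard error from limma with 4 arrays against 4. PSMA1 fell by 0.39 ± 0.09, and its 3 probe sets were all lower, at -0.39, -0.42 and -0.72. PSMA5 had a change of -0.41 (adjusted p = 0.114). PSMA7 differed little, at -0.04 with a 95% interval of -0.31 to 0.22. The probe sets used for PSMA1, PSMA7 and PSMD4 are of a type that may bind near-identical sequences elsewhere, so their values are less certain. The same holds for NFE2L1, PSME3, KRT8, KRT18 and DCN among the other genes named.

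The beta ring had 2 of 7 members lower, PSMB5 and PSMB2, with a median of -0.24 (3 of 7 with the replicate block, which added PSMB3, and 0 of 7 without replicate 2). PSMB5 carries the chymotrypsin-like site, the main target of bortezomib. It had 11.08, 11.07, 11.05 and 11.26 in polysome RNA of PP242-treated cells, against 11.46, 11.67, 11.72 and 11.79 in polysome RNA of vehicle-treated cells. The groups stood apart, with PP242 array 4 the highest of its group, and the change was -0.54 ± 0.14 (adjusted p = 0.0133). PSMB6, which carries the caspase-like site, had 12.26, 12.21, 12.48 and 12.43 with PP242, against 12.56, 12.60, 12.55 and 12.54 with vehicle. PSMB7, which carries the trypsin-like site, had 12.18, 12.17, 12.07 and 12.29 with PP242, against 12.38, 12.42, 12.46 and 12.41 with vehicle. Both had all PP242 arrays below all vehicle arrays, but by -0.22 (95% interval -0.48 to 0.05) and -0.24 (-0.53 to 0.05), and neither passed the test. PSMB2, a subunit without a protease site, had 11.31, 11.37, 11.27 and 11.63 with PP242, against 11.94, 11.90, 11.79 and 11.93 with vehicle, a fall of 0.50 ± 0.14 (adjusted p = 0.0262). The other structural subunits did not pass: PSMB3 had -0.46 (adjusted p = 0.0592), PSMB4 -0.14 and PSMB1 -0.02.

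Of the 5 measured base ATPases 4 were lower, with a median of -0.47 (4 of 5 with the replicate block). After quantile scaling, or without replicate 1, 2 or 4, PSMC3, PSMC4 and PSMC6 no longer passed and 1 of 5, PSMC2, was lower. PSMC6 passed in 7, PSMC4 in 9 and PSMC3 in 10 of 15 alternative settings. These enzymes form the ring that unfolds substrates and opens the core. PSMC3, whose tail docks into the alpha ring, had 9.0, 9.23, 8.64 and 8.86 in polysome RNA of PP242-treated cells, against 9.51, 9.93, 9.59 and 9.55 in polysome RNA of vehicle-treated cells. PSMC4 had 10.13, 10.13, 9.77 and 10.15 with PP242, against 10.51, 10.66, 10.61 and 10.52 with vehicle. PSMC2 had 11.49, 11.49, 11.28 and 11.46 with PP242, against 11.85, 12.07, 11.86 and 11.83 with vehicle. The third PP242 array was again the lowest in each, and no PP242 value reached the vehicle range. The falls were 0.71 ± 0.20 for PSMC3 (adjusted p = 0.023), 0.53 ± 0.16 for PSMC4 (0.0323) and 0.47 ± 0.10 for PSMC2 (0.00277). PSMC6 fell by 0.45 ± 0.13 (adjusted p = 0.0327). PSMC1 had a change of -0.25 (adjusted p = 0.161).

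The 4 base genes that are not ATPases had no member called, with a median of -0.14. They are the scaffolds PSMD1 (-0.34) and PSMD2 (-0.20) and the ubiquitin receptors PSMD4 (0.06) and ADRM1 (-0.09). The 95% interval was -0.22 to 0.33 for PSMD4 and -0.48 to 0.30 for ADRM1. With the replicate block PSMD1 fell (adjusted p = 0.0487), and its other probe set, of lower intensity, had -0.60 without the block (adjusted p = 0.0252). The values of PSMD1 and PSMD2 also differed between replicate numbers, and PSMD2 was not called with the block either (adjusted p = 0.378). PSMD2 had 11.03, 10.96, 11.52 and 11.68 in polysome RNA of PP242-treated cells, against 11.30, 11.32, 11.65 and 11.71 in polysome RNA of vehicle-treated cells. Arrays 3 and 4 were higher than arrays 1 and 2 in both groups, and the groups overlapped.

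In the lid 3 of 6 members were lower, with a median of -0.40, and all 6 of 6 were lower with the replicate block, whereas 2 of 6 were lower after quantile scaling and without any 1 replicate number. PSMD12, a scaffold subunit, had 9.80, 9.85, 9.63 and 9.83 in polysome RNA of PP242-treated cells, against 10.33, 10.53, 10.57 and 10.49 in polysome RNA of vehicle-treated cells. PSMD11, which clamps the lid to the core, had 10.21, 10.24, 10.23 and 10.47 with PP242, against 10.83, 10.94, 10.95 and 10.96 with vehicle. PSMD6, another scaffold, had 10.69, 10.73, 10.42 and 10.52 with PP242, against 10.90, 11.11, 11.06 and 10.96 with vehicle. The groups did not overlap in any of them. PSMD12 fell by 0.70 ± 0.11 (adjusted p = 0.000128, the smallest among the members), PSMD11 by 0.63 ± 0.12 (0.000841) and PSMD6 by 0.42 ± 0.12 (0.0239). Both probe sets of PSMD12 (-0.70 and -0.88) and of PSMD11 (-0.63 and -0.82) passed. Of 11 members with several probe sets of mean 6 or more, 8 had the same call in all on polysomes. The others were PSMD1, given above, PSMC2 and PSMB2. The second such probe set of PSMC2 had -0.31 (adjusted p = 0.176) and that of PSMB2 -0.28 (0.292). PSMD14, the deubiquitinase of the lid, had -0.37 (adjusted p = 0.0541), PSMD8 -0.36 and PSMD3 -0.30. PSMD6 was the called member that passed least often, in 6 of 15 alternative settings. PSMA2, PSMA4 and PSMD12 passed in all 15, with adjusted p at most 0.0184, 0.0375 and 0.0238.

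Promoter sequence was looked at because the known regulators of proteasome genes bind short motifs. Windows of 250 bases before and 50 bases after the start of a gene were taken from RefSeq (GRCh38.p14), 1 window per gene, and 27 of the 32 genes had one; PSMA7, PSMB1, PSMB6, PSMB7 and PSMD4 are only named. The antioxidant response element, which NFE2L1 binds, was searched as TGACNNNGC, and the box bound by the factor NF-Y as CCAAT, each on both strands. No match of one motif overlapped a match of the other in the member windows. CCAAT was in 15 of 27 member windows (55.6%) and in 35.7% of 27305 windows of all genes. TGACNNNGC was in 6 of 27 member windows (22.2%) and in 13.6% of all windows. Among the 13 members lower on polysomes, 7 windows held CCAAT (53.8%) and 2 held TGACNNNGC (15.4%), and among the 10 members with a window that were not called, 6 held CCAAT (60.0%) and 4 held TGACNNNGC (40.0%). A match describes letters and not a bound site. Shown first are 4 CCAAT boxes of members that fell, from the alpha ring and the base ATPases, with the box in capitals:
PSMA3: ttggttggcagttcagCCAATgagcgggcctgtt
PSMA2: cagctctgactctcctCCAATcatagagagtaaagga
PSMC3: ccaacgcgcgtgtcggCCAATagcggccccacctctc
PSMC2: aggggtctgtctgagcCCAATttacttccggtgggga
They lie at chr14:58244809-58244842 (plus strand, 18 bases before the start), chr7:42932238-42932274 (minus strand, 84 bases), chr11:47426533-47426569 (minus strand, 114 bases) and chr7:103347596-103347632 (plus strand, 31 bases). Shown next are the 4 matches to TGACNNNGC upstream of a start, in capitals, of which PSMD12 fell on polysomes and the others were not called:
PSMD12: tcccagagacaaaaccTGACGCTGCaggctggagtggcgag
PSMB3: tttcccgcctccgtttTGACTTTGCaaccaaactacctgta
PSMD3: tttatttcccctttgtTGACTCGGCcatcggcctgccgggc
ADRM1: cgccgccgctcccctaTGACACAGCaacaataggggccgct
They lie at chr17:67366718-67366758 (minus strand, 165 bases), chr17:38752621-38752661 (plus strand, 104 bases), chr17:39980754-39980794 (plus strand, 37 bases) and chr20:62302743-62302783 (plus strand, 137 bases).

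In cytosolic RNA fewer members changed with PP242: 7 of 28 fell, 0 rose and 21 did not pass, where 7.91% of all genes fell and 8.54% rose. The median was -0.18, against 0.04 for all genes, and 8 members had groups that did not overlap, with the PP242 arrays lower, as did 8.34% of all genes; 9.34% of all genes had the PP242 arrays higher without overlap. All 7 were among the 13 lower on polysomes: PSMA2, PSMA3, PSMA4, PSMC2, PSMC6, PSMD11 and PSMD12. The other 6 (PSMA1, PSMB2, PSMB5, PSMC3, PSMC4 and PSMD6) were called on polysomes but not in the cytosol, and 15 members in neither. By subcomplex the cytosolic falls were 3 of 6 in the alpha ring, 0 of 7 in the beta ring, 2 of 5 among base ATPases, 0 of 4 among the other base genes and 2 of 6 in the lid. The estimates of both pools, which come from separate arrays but from cells of the same replicate numbers, correlated across the 28 members (Pearson's r = 0.82, Spearman's rho = 0.85). The correlation over all genes was not computed, so this value is not read as a trait of the members.

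PSMA2 had 11.03, 10.94, 10.63 and 10.77 in cytosolic RNA of PP242-treated cells, against 11.86, 11.74, 11.57 and 11.54 in cytosolic RNA of vehicle-treated cells. PSMA4 had 9.96, 9.86, 9.60 and 9.92 with PP242, against 10.66, 10.42, 10.47 and 10.44 with vehicle. PSMA3 had 9.77, 10.16, 9.45 and 10.16 with PP242, against 10.72, 10.63, 10.63 and 10.60 with vehicle. None of these groups overlapped, and the falls were 0.84 ± 0.11 (PSMA2, adjusted p = 4.59e-05), 0.66 ± 0.11 (PSMA4, 0.000263) and 0.76 ± 0.17 (PSMA3, 0.00366). Of the base ATPases, PSMC6 had 9.43, 8.99, 9.76 and 9.32 with PP242, against 10.09, 10.01, 10.42 and 10.29 with vehicle. PSMC2 had 10.97, 11.01, 10.73 and 11.09 with PP242, against 11.22, 11.26, 11.33 and 11.28 with vehicle. PSMC6 fell by 0.83 ± 0.13 (adjusted p = 0.000276) and PSMC2 by 0.32 ± 0.10 (0.0324). In PSMC6 the third PP242 array was the highest of its group, unlike in most members.

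In the lid, PSMD12 had 9.42, 9.26, 9.22 and 9.52 in cytosolic RNA of PP242-treated cells, against 10.09, 10.06, 10.20 and 10.29 in cytosolic RNA of vehicle-treated cells. PSMD11 had 10.08, 10.21, 9.90 and 10.50 with PP242, against 10.48, 10.50, 10.54 and 10.56 with vehicle. PSMD12 had separate groups and fell by 0.81 ± 0.11 (adjusted p = 2.87e-05). PSMD11 had PP242 array 4 inside the vehicle range and fell by 0.35 ± 0.12 (adjusted p = 0.0461). PSMD11 and PSMC2 each passed in 11 of 21 alternative settings. PSMA2, PSMA4, PSMC6 and PSMD12 passed in all 21, with adjusted p at most 0.0115, 0.0384, 0.0304 and 0.0169. Of 11 members with several probe sets of mean 6 or more, 8 had the same call in all in the cytosol. The second such probe set of PSMD11 (-0.49, adjusted p = 0.0869) and that of PSMC2 (-0.26, 0.235) did not pass. For PSMB1 the second was lower (-0.29, adjusted p = 0.0203), while the one used had -0.05.

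The protease subunits did not pass in the cytosol. PSMB5 had 10.36, 10.77, 10.04 and 10.85 with PP242, against 10.65, 10.64, 10.65 and 10.62 with vehicle, so that arrays 1 and 3 lay below the vehicle range and arrays 2 and 4 above it. PSMB6 had 11.15, 11.48, 10.88 and 11.61 with PP242, against 11.47, 11.56, 11.39 and 11.41 with vehicle. PSMB7 had 11.32, 11.70, 10.91 and 11.76 with PP242, against 11.36, 11.36, 11.37 and 11.36 with vehicle. The vehicle arrays hardly differed, while the PP242 arrays scattered on both sides of them. The changes were -0.14 ± 0.14 (PSMB5), -0.18 ± 0.13 (PSMB6) and 0.06 ± 0.14 (PSMB7).

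The ubiquitin receptor PSMD4 had the highest estimate among the members in the cytosol. It had 11.10, 11.49, 10.81 and 11.57 with PP242, against 10.88, 10.92, 10.84 and 10.84 with vehicle, with only the third PP242 array below the vehicle range. The change was 0.37 ± 0.13 (adjusted p = 0.0586), and with the replicate block PSMD4 rose (adjusted p = 0.0261), where 13.9% of all genes rose. Its other 3 probe sets had 0.25, 0.29 and 0.34 in the cytosol. ADRM1, the other receptor, had 8.84, 9.37, 8.89 and 9.80 with PP242, against 8.54, 8.64, 9.15 and 9.22 with vehicle, a change of 0.34 ± 0.19 (adjusted p = 0.239).

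The cytosolic PP242 arrays differed from each other more than those of any other group, and the members followed this closely. The median SD of a member was 0.33 among the cytosolic PP242 arrays, against 0.12, 0.09 and 0.09 in polysome PP242, polysome vehicle and cytosolic vehicle arrays, and the median SD of all genes was 0.24 among the cytosolic PP242 arrays. Array 3 was the lowest of its group for 21 of 28 members and for 37.1% of all genes, and array 4 was the highest for 21 of 28 members and for 32.4% of all genes. The mean over the 28 members was 10.46, 10.69, 10.25 and 10.85 in cytosolic RNA of PP242-treated cells, against 10.74, 10.76, 10.82 and 10.82 in cytosolic RNA of vehicle-treated cells. One PP242 array was therefore above all vehicle arrays and the others were below them. On polysomes the mean was 11.23, 11.28, 11.17 and 11.33 with PP242, against 11.56, 11.68, 11.68 and 11.64 with vehicle, with no overlap. The standard errors share the spread of all groups, so those of cytosolic changes do not carry the wider cytosolic spread in full. Fitted on the cytosolic arrays alone, 5 of the 7 members stayed lower, without PSMC2 and PSMD11. Fitted on the polysome arrays alone, all 13 stayed lower and PSMA5, PSMB3, PSMB7 and PSMD14 were added.

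**Figure D2:**
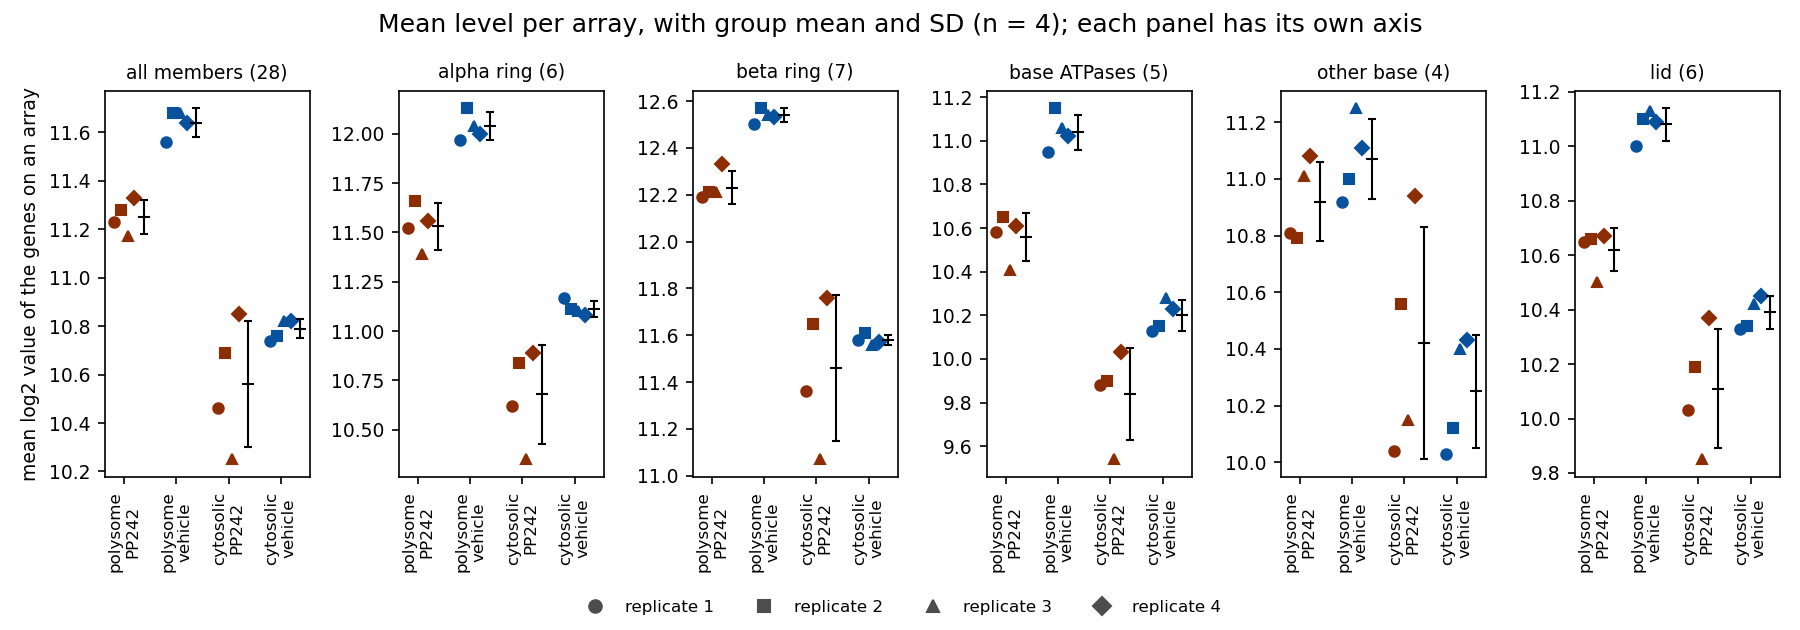
Mean log2 value of all 28 members and of each subcomplex (number of genes in brackets) on every array, with the group mean and SD (n = 4); PP242 in brown, vehicle in blue, and each panel has its own axis. For the mean over the 28 members the polysome PP242 arrays (11.17 to 11.33) sit below the polysome vehicle arrays (11.56 to 11.68), while the cytosolic PP242 arrays spread from 10.25 to 10.85 around vehicle arrays at 10.74 to 10.82.

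Within replicate numbers 1 to 4, the median difference of the members, PP242 minus vehicle, was -0.30, -0.38, -0.56 and -0.29 on polysomes, and -0.27, -0.02, -0.55 and 0.07 in the cytosol. On polysomes 26, 26, 27 and 26 of the 28 members lay below 0 in the 4 numbers, and in the cytosol 25, 16, 28 and 9. The count in the cytosol depended on single arrays. Without cytosolic PP242 arrays 2 and 4 together, 17 members were lower with a median of -0.42, and without array 3 alone 5 were lower and 1, PSMD4, was higher with a median of -0.06. Arrays 2 and 4 had the highest member means of their group (10.69 and 10.85) and array 3 the lowest (10.25). Leaving them out therefore moves the median in a direction known beforehand, and the 17 are no support for a fall. Without cytosolic PP242 arrays 3 and 4 together, 6 were lower, 1 was higher and the median was -0.15.

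**Figure D3:**
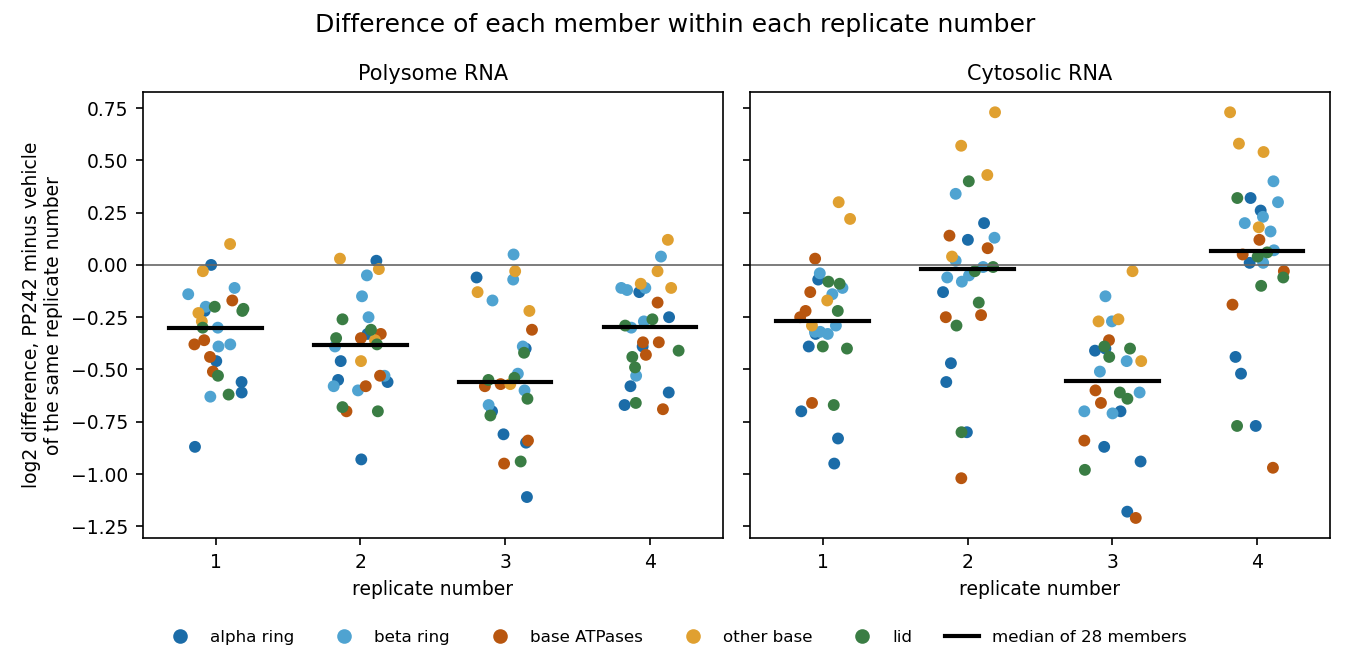
Difference of each of the 28 members between the PP242 array and the vehicle array of the same replicate number, in log2 units, in polysome RNA (left) and cytosolic RNA (right), with the median as a black bar and subcomplexes by colour. The polysome medians lie between -0.56 and -0.29, while the cytosolic medians run between -0.55 in number 3 and 0.07 in number 4.

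Whether PP242 changed the share of a member's mRNA on polysomes is asked by the difference of both effects, polysome minus cytosolic. By limma 0 of 28 members and 0 of 19775 genes passed, a background of 0%. At an unadjusted p under 0.05, without the replicate block, there were 0 members and 1749 genes. The median difference was -0.19 for the members and -0.04 for all genes, with 23 of 28 members below 0. The lowest estimates were those of ADRM1 (-0.43, 95% interval -0.98 to 0.13), PSMD8 (-0.42, -0.94 to 0.10) and PSMB5 (-0.41, -0.83 to 0.01), and the highest was that of PSMC6 (0.38, -0.02 to 0.78). A second model, which regressed a gene's polysome level on its cytosolic level and on treatment, called 7 members lower and 0 higher, with 383 genes lower and 319 higher over all genes. These 7 were PSMB2 (-0.42), PSMB3 (-0.41), PSMB5 (-0.52), PSMC3 (-0.54), PSMC4 (-0.46), PSMD8 (-0.39) and PSMD14 (-0.37), with adjusted p of 0.0138 to 0.0419. The slopes on the cytosolic level were 0.03 (PSMD14) to 0.55 (PSMD8) for these 7, and 0.16 for PSMB5. The estimates of PSMB5 and PSMD14 stay close to the polysome effects, -0.52 against -0.54 and -0.37 against -0.37. That of PSMC3, with a slope of 0.40, was -0.54 against -0.71, and that of PSMD8 -0.39 against -0.36. Slopes of this size subtract only part of a cytosolic difference, so the 7 estimates are not read as changes of the share on polysomes. None of the 7 was lower in the cytosol by limma. The interval of PSMB5 from limma without the block reached from a clear deficit on polysomes to a difference near 0. With the replicate block 0 members passed too. The intervals of PSMB5 (-0.77 to -0.05), PSMD8 (-0.76 to -0.08) and PSMC6 (0.03 to 0.73) then left out 0.

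In vehicle-treated cells all 28 of 28 members were higher in polysome than in cytosolic RNA, where 16.8% of all genes were higher and 35.9% lower (52.7% in either direction). With the replicate block 28 of 28 were higher too, beside 19.5% of all genes higher and 39.7% lower. The median was 0.88 for the members and -0.16 for all genes, and the groups did not overlap in 28 of 28, as in 17.4% of all genes (35.8% the other way). The members are bright on the array, and among the 9656 genes with a mean of at least 6 the median was 0.00 and 2794 were higher. The array medians of both pools differ and the sources do not state whether they were normalised together, so the offset between the pools is uncertain. After quantile scaling of all 16 arrays 22 members were higher with a median of 0.54 against 0.01 for all genes, and after cyclic loess 22 with a median of 0.51 against 0.01. The choice of probe set mattered too. With the mean of a gene's probe sets 21 members were higher and 2 lower with a median of 0.75, and the calls of PSMA5, PSMB1, PSMB2, PSMB7, PSMC2, PSMD11 and PSMD12 as higher were lost. Dimmer probe sets were lower in polysome RNA for PSMB2 (-1.23, and -1.66 and -0.33 in dimmer ones still), PSMC2 (-0.51 and -1.11), PSMD11 (-0.60), PSMD12 (-0.83), PSMD4 (-0.99) and PSMA5 (-1.11). Some of these averaged less than the median of any array: 4.23 and 3.16 for the dimmest of PSMB2, 4.22 for that of PSMC2 and 3.99 for that of PSMA5. So near the floor a difference between pools may be background, and the probe-set means of these 3 genes include it. Of 11 members with several probe sets of mean 6 or more, 5 had the same call in all and 7 the same sign.

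**Figure D4:**
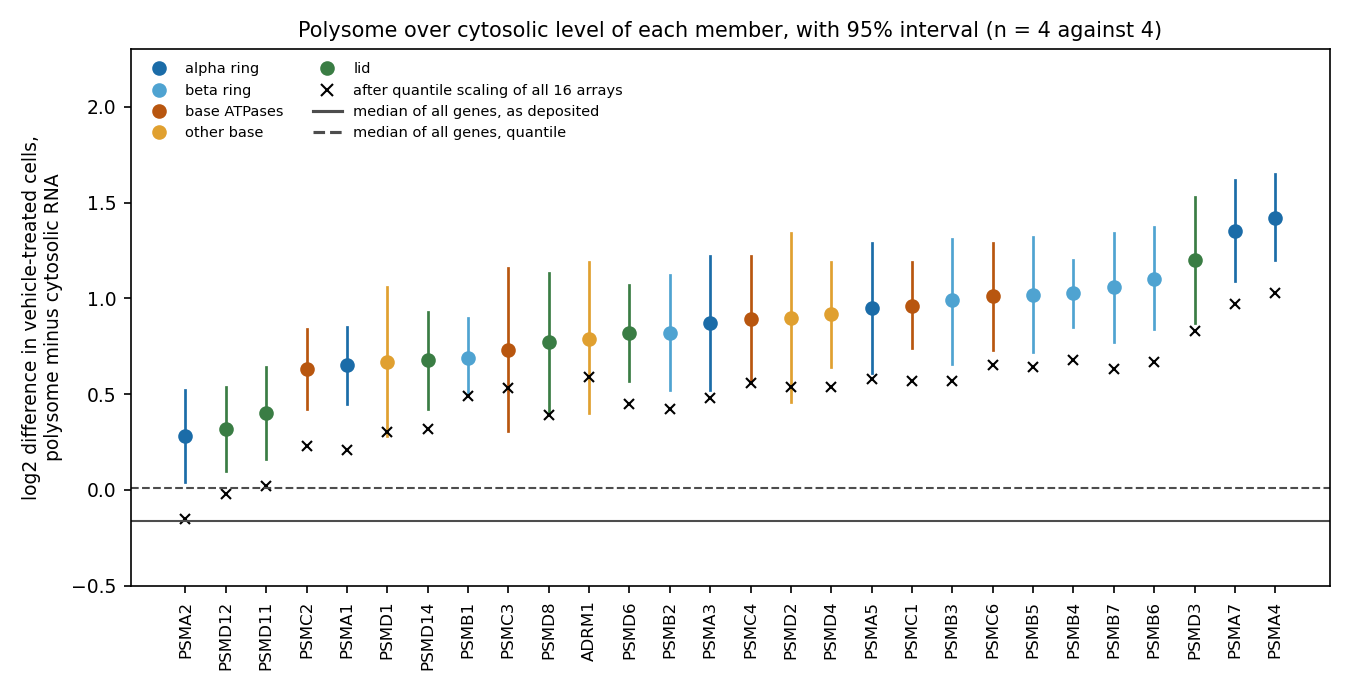
Polysome minus cytosolic log2 level of each member in vehicle-treated cells with its 95% interval, coloured by subcomplex and ordered by size; crosses give the same after quantile scaling of all 16 arrays, and lines give the median of all genes. As deposited every member lies above the median of all genes (-0.16), and after quantile scaling 26 of 28 do (median of all genes 0.01).

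The beta ring had the highest subcomplex median of polysome over cytosolic level (1.02), followed by the alpha ring (0.91), the base ATPases (0.89), the other base genes (0.85) and the lid (0.72). PSMA4 had 11.91, 12.01, 11.95 and 11.81 in polysome RNA, against 10.66, 10.42, 10.47 and 10.44 in cytosolic RNA, the largest difference among the members at 1.42 ± 0.11. PSMA7 had 12.74, 12.86, 12.82 and 12.86 in polysome RNA, against 11.34, 11.46, 11.53 and 11.53 in cytosolic RNA. In the lid PSMD3, a scaffold subunit, had 11.06, 11.04, 11.50 and 11.36 in polysome RNA, against 9.79, 9.84, 10.27 and 10.26 in cytosolic RNA. PSMA7 and PSMD3 differed by 1.35 ± 0.13 and 1.20 ± 0.16, with no overlap in either. PSMA5 had 11.34, 11.65, 11.78 and 11.68 in polysome RNA, against 10.64, 10.69, 10.66 and 10.66 in cytosolic RNA. Its difference was 0.95 ± 0.16, also without overlap.

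In the beta ring the largest differences were those of PSMB6, PSMB7 and PSMB4. PSMB6 had 12.56, 12.60, 12.55 and 12.54 in polysome RNA, against 11.47, 11.56, 11.39 and 11.41 in cytosolic RNA. PSMB7 had 12.38, 12.42, 12.46 and 12.41 in polysome RNA, against 11.36, 11.36, 11.37 and 11.36 in cytosolic RNA. PSMB4 had 13.24, 13.30, 13.26 and 13.21 in polysome RNA, against 12.24, 12.24, 12.24 and 12.19 in cytosolic RNA. These groups stood about 1 log2 unit apart, by 1.10 ± 0.13, 1.06 ± 0.14 and 1.03 ± 0.08. Among the base ATPases PSMC6 had 11.20, 11.19, 11.22 and 11.24 in polysome RNA, against 10.09, 10.01, 10.42 and 10.29 in cytosolic RNA. PSMC1 had 11.70, 11.89, 12.00 and 11.94 in polysome RNA, against 10.85, 10.82, 10.99 and 11.02 in cytosolic RNA. PSMC4 had 10.51, 10.66, 10.61 and 10.52 in polysome RNA, against 9.58, 9.63, 9.77 and 9.76 in cytosolic RNA. They differed by 1.01 ± 0.13, 0.96 ± 0.11 and 0.89 ± 0.16, with no overlap.

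Of the other base genes, PSMD4 had 11.74, 11.88, 11.85 and 11.68 in polysome RNA, against 10.88, 10.92, 10.84 and 10.84 in cytosolic RNA. PSMD2 had 11.30, 11.32, 11.65 and 11.71 in polysome RNA, against 10.37, 10.44, 10.75 and 10.82 in cytosolic RNA. ADRM1 had 9.62, 9.53, 9.85 and 9.73 in polysome RNA, against 8.54, 8.64, 9.15 and 9.22 in cytosolic RNA. The differences were 0.92 ± 0.13, 0.90 ± 0.21 and 0.79 ± 0.19, and arrays 3 and 4 of PSMD2 and ADRM1 were higher than arrays 1 and 2 in both pools. In the lid PSMD6 had 10.90, 11.11, 11.06 and 10.96 in polysome RNA, against 10.21, 10.27, 10.16 and 10.11 in cytosolic RNA. PSMD8, another lid subunit, had 11.23, 11.31, 11.00 and 11.19 in polysome RNA, against 10.54, 10.50, 10.27 and 10.36 in cytosolic RNA. They differed by 0.82 ± 0.12 and 0.77 ± 0.17. At the low end were PSMA2 (0.28), PSMD12 (0.32) and PSMD11 (0.40). After quantile scaling PSMA2 had -0.15, PSMD12 -0.02 and PSMD11 0.02. These 3 were also lower with PP242 in both pools.

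Other genes of the pathway were described from lists of related genes. Of 9 assembly chaperones 4 fell on polysomes and 0 rose, where 6.55% of all genes fell and 6.8% rose. In the cytosol 5 of the 9 fell and 0 rose, where 7.91% of all genes fell and 8.54% rose. These shares of all genes are the background for each related list. PSMG1, which pairs with PSMG2 to start the alpha ring, had 9.53, 9.44, 9.21 and 9.58 in polysome RNA of PP242-treated cells, against 10.17, 10.25, 10.12 and 10.52 in polysome RNA of vehicle-treated cells. It fell by 0.82 ± 0.15 on polysomes and by 1.07 ± 0.15 in the cytosol (adjusted p = 0.000942 and 7.59e-05), with groups apart in both. PSMG2 did not pass in either pool (-0.07 and 0.19). PSMG3, the partner of PSMG4 in the next step of the ring, fell by 0.69 ± 0.15 and 0.66 ± 0.15, whereas PSMG4 had 0.53 on polysomes (adjusted p = 0.0533, and higher with the replicate block, adjusted p = 0.0173) and -0.23 in the cytosol. Of the base chaperones PSMD5 fell by 0.69 ± 0.15 and 0.52 ± 0.15 and PSMD10 by 0.82 ± 0.16 and 0.67 ± 0.16, while PSMD9 (-0.08 and 0.05) and PAAF1 (-0.18 and 0.03) did not pass. POMP, the maturation factor of the core, fell in the cytosol by 0.37 ± 0.10 (adjusted p = 0.0126) and had -0.14 on polysomes.

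Among proteins that bind the assembled particle, UCHL5, a deubiquitinase that docks on ADRM1, had 8.42, 8.33, 8.29 and 8.44 in polysome RNA of PP242-treated cells, against 9.08, 9.22, 9.03 and 9.15 in polysome RNA of vehicle-treated cells. In the cytosol UCHL5 had 8.31, 8.32, 8.74 and 8.45 with PP242, against 9.27, 9.25, 9.53 and 9.55 with vehicle. It fell by 0.75 ± 0.12 and 0.94 ± 0.12 (adjusted p = 0.000188 and 1.59e-05). USP14, the deubiquitinase bound to PSMD2, had -0.28 and -0.30 and was called lower in both pools only with the replicate block (adjusted p = 0.0163 and 0.0101). ECPAS, which tethers the core to the regulatory particle, rose on polysomes by 0.57 ± 0.11 (adjusted p = 0.00134) and had 0.16 in the cytosol. Of 6 bound partners 1 fell and 1 rose on polysomes, and 1 fell in the cytosol. PSME3, a nuclear activator of the core, fell on polysomes by 0.82 ± 0.18 (adjusted p = 0.00495) and had -0.52 in the cytosol (adjusted p = 0.0609, and 0.0188 with the replicate block). PSMF1, an inhibitor of the core, fell in the cytosol by 0.43 ± 0.12 (adjusted p = 0.0189). Of the 4 measured activators and inhibitor 1 fell in each pool and 0 rose.

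**Figure D5:**
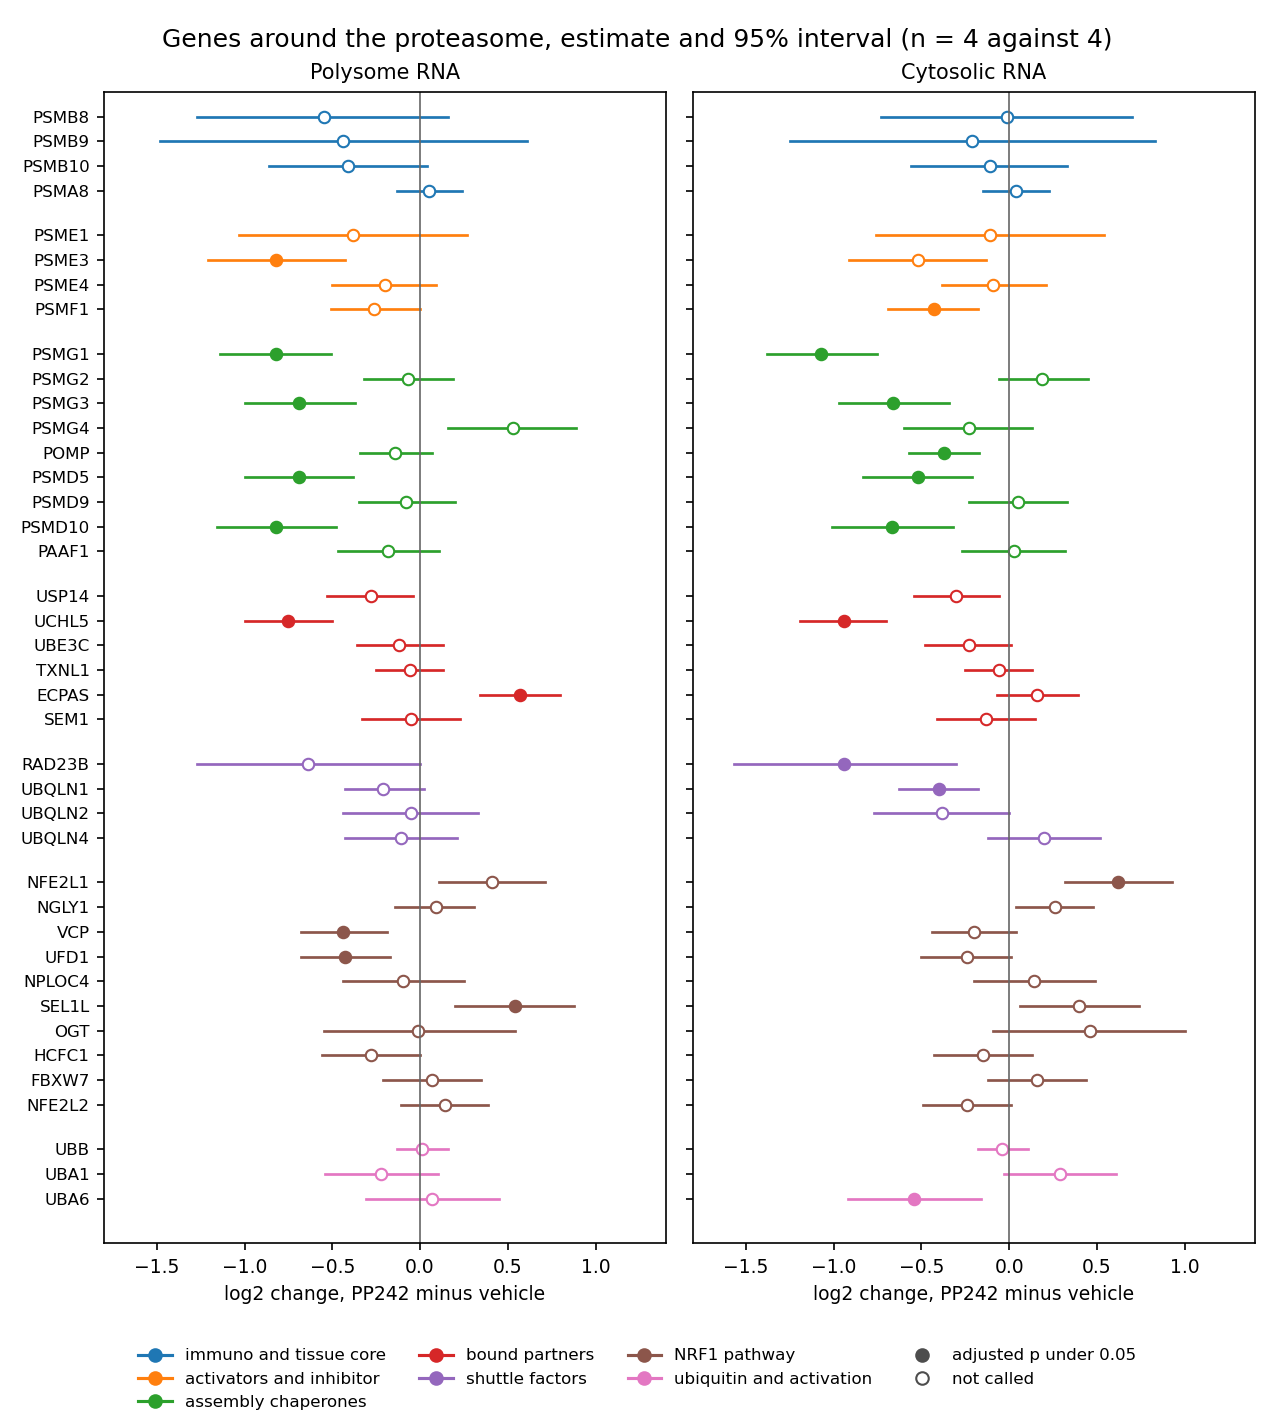
Change of genes around the proteasome with PP242, in polysome RNA (left) and cytosolic RNA (right), as the log2 difference PP242 minus vehicle with its 95% interval, coloured by list; filled points passed the test at an adjusted p under 0.05. The assembly chaperones PSMG1, PSMG3, PSMD5 and PSMD10 lie left of 0 in both pools, and NFE2L1 lies right of 0 in both.

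NFE2L1, the transcription factor that raises proteasome genes when proteasome activity runs short, had 10.07, 10.60, 10.15 and 10.42 in cytosolic RNA of PP242-treated cells, against 9.63, 9.67, 9.61 and 9.83 in cytosolic RNA of vehicle-treated cells. It rose by 0.62 ± 0.14 (adjusted p = 0.00518), while 7 of the 28 subunits fell in the cytosol and 21 did not pass. On polysomes it had 0.41 ± 0.14 (adjusted p = 0.0683, and 0.0149 with the replicate block). Of the 10 measured genes of its pathway, 2 fell and 1 rose on polysomes, beside 6.55% and 6.8% of all genes. VCP, the ATPase that pulls NFE2L1 out of the membrane, fell by 0.44 ± 0.12 and its cofactor UFD1 by 0.43 ± 0.12, while SEL1L, an adaptor of protein removal from the endoplasmic reticulum, rose by 0.54 ± 0.16. In the cytosol 0 of the 10 fell and 1, NFE2L1, rose. With the replicate block SEL1L and OGT rose there too (adjusted p = 0.0387 and 0.0207). Of 4 shuttle factors, which carry ubiquitylated proteins to the proteasome, 0 were called on polysomes and 2 fell in the cytosol, RAD23B by 0.94 ± 0.30 and UBQLN1 by 0.40 ± 0.11. RAD23B also fell on polysomes with the replicate block (adjusted p = 0.0131). Of 3 measured ubiquitin and activation genes UBA6, an activating enzyme, fell in the cytosol by 0.54 ± 0.18 (adjusted p = 0.0487).

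The immunoproteasome subunits, which replace the protease subunits of the beta ring after interferon, were measured by 3 genes, and 0 of them were called without the block in either pool. PSMB9 had 7.36, 7.34, 6.09 and 6.14 in polysome RNA of PP242-treated cells, against 8.15, 8.19, 6.12 and 6.22 in polysome RNA of vehicle-treated cells. PSMB8 had 5.98, 6.05, 5.13 and 5.07 with PP242, against 6.68, 6.89, 5.37 and 5.51 with vehicle. Within each of these polysome groups, arrays 1 and 2 were higher than arrays 3 and 4, by more than the treatments differed in arrays 3 and 4. With the replicate block both fell on polysomes, PSMB8 by 0.55 ± 0.16 (adjusted p = 0.0208) and PSMB9 by 0.44 ± 0.15 (0.0489). PSME1, an activator that works with the immunoproteasome, fell with the block by 0.38 ± 0.10 (adjusted p = 0.0107). PSMB10 had -0.41 on polysomes and -0.11 in the cytosol.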

How the data were processed

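The deposited table holds log2 intensity values of 54613 probe sets on 16 arrays, which the authors summarised with RMA, per the submitters' processing notes; background settings, and whether all arrays were normalised together, were not stated in the labels or notes. Probe sets paired with 1 gene were used, 1 per gene by highest mean. From these, limma 3.58.1 in R 4.3.3 fitted 1 mean per group over 16 arrays with an intensity trend, and 2-sided p-values were adjusted by the Benjamini-Hochberg procedure over 19775 genes and called under 0.05. The steps were tested on simulated data. Python 3.11.15, pandas 2.3.3 and matplotlib 3.10.9 made tables and plots. The number of arrays limits the precision.

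The members, subcomplexes and related lists were chosen with earlier results of these data known. All members are accounted for; values per array are given for the 3 called members with the largest absolute change in each comparison and subcomplex, for PSMB5, PSMB6 and PSMB7, and for members called against most others. Related genes are named where called in either pool, plus NFE2L1, POMP, PSMD5, PSMD9, PSMD10, PSMG1, PSMG2, PSME3, USP14 and UCHL5. ADRM1 and PSMD4 in the cytosol, PSMD2 on polysomes, PSMB8, PSMB9, PSMB10, PSME1, PSMG4, PAAF1 and OGT were chosen after their values were seen.

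Labels do not say that replicates were separate cultures, so p-values measure only the spread between these samples, which may be technical. Same-numbered arrays of the groups compared deviated together in 16 of 16 pairs (correlation 0.164 to 0.51, all over 0.1). Of the 16 arrays, 11 matched best, on average, with the arrays of their own number in the other groups. The main fits leave the number out, and values with the number as a block stand beside results they change. Alternatives covered scaling, probe sets, dim genes, array weights and left-out arrays.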

Additional observations from a re-analysis of the deposited data

Results flagged for a closer look

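Of 116 sets of 4 arrays (28 members and their mean in 4 groups), 10 (8.62%) had 1 array whose gap to the nearest other array passed Dixon's 95% critical value for the group's range. Chance marks about 1 in 20 such sets, but the deposited values have few decimals, so in the tightest sets the ratio rests on rounding and the count is not set against chance. The widest gap was in cytosolic RNA, where PSMC3 had 7.66 on PP242 array 3 against 8.69 to 8.81 on the others, the same array that was lowest for most members. In polysome RNA of PP242-treated cells, array 3 was low for PSMC4 (9.77 against 10.13 to 10.15) and PSMC2 (11.28 against 11.46 to 11.49), array 4 was high for PSMB5 (11.26 against 11.05 to 11.08) and PSMD11 (10.47 against 10.21 to 10.24), and array 2 was high for PSMB4 (13.15 against 13.09 to 13.10). In polysome RNA of vehicle-treated cells, array 2 was high for PSMC2 (12.07 against 11.83 to 11.86) and array 1 was low for PSMD11 (10.83 against 10.94 to 10.96). In cytosolic RNA of vehicle-treated cells, array 4 was low for PSMB4 (12.19 against 12.24) and array 3 was high for PSMB7 (11.37 against 11.36, the smallest step of the table). All of these values were kept. The difference between the polysome and cytosolic effects passed for 0 members by limma. Without the replicate block it also passed for 0 at an unadjusted p under 0.05.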

How the results depend on the processing

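The number of members lower on polysomes was 13 and became 8 after quantile scaling, 6 to 11 without 1 replicate number and 3 with numbers 3 and 4 only, and the median of -0.40 became -0.26 after cyclic loess. Shares of all genes called are not given for the alternative fits in this section, and fits on fewer arrays test every gene more weakly. In the cytosol 7 members lower became 4 to 6 without 1 replicate number and 4 with numbers 3 and 4 only. They became 17 without PP242 arrays 2 and 4 together, the arrays with the highest member means of their group. The 0 members higher there became 1 (PSMD4) with the replicate block, without dim genes, after quantile scaling, after cyclic loess, and in leave-one-out fits (0 to 1). Cytosolic PP242 arrays left out singly, or 3 and 4 together, were chosen after seeing the data: 5 to 8 members were lower singly and 6 with both left out, with 1 higher. For polysome association 0 members became 7 lower by regression, where the slopes subtract only part of a cytosolic difference. For polysome over cytosolic level in vehicle-treated cells the median of 0.88 became 0.75 with the mean of a gene's probe sets (2 members lower), 0.54 by quantile, 0.51 by cyclic loess and 1.21 by median centring. Signs reversed for PSMA2 by quantile and cyclic loess (-0.15 in both), for PSMD12 by quantile (-0.02), and with the mean of probe sets for PSMA5 (-0.08), PSMB2 (-0.60), PSMC2 (-0.33), PSMD11 (-0.10) and PSMD12 (-0.25). The probe-set means of PSMA5, PSMB2 and PSMC2 include probe sets near the floor of the scale. The cause of the reversals was not tested. The replicate block changed no other call among the members than those given beside their results. The median of all genes in that comparison was -0.16 as deposited, 0.01 by quantile, 0.01 by cyclic loess and 0.17 by median centring.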
